A study of Mus musculus with 18 samples.

Results

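The genes described here are 8 transcripts by which granulosa cells of the ovarian follicle are usually recognised or regulated, among 57010 genes listed in each of 2 count tables: Inha, Inhba and Inhbb, the subunits of the inhibins and activins, Fst (follistatin), Amh (anti-Mullerian hormone), and the transcription factor genes Foxl2, Nr5a1 and Nr5a2. They were chosen by name, and all 8 were found by gene symbol in both tables. RNA had been sequenced from the ovary and the uterus of C57B6/J mice aged 20 to 25 weeks. The genotypes compared were labelled WT (wild type), ARE+/- (heterozygous) and ARE-/- (homozygous), with 3 libraries per tissue and genotype, 18 in all. The genotype labels do not spell out the allele. By its usual meaning ARE is the AU-rich element near the end of the Ifng transcript, whose loss lengthens the life of the message for interferon gamma. No Cre, transgene or treatment was named, and the series title speaks of defective luteinization, CD8+ T cells and hypophysitis, an inflammation of the pituitary gland.

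A dimer of the inhibin alpha chain with a beta chain is an inhibin, which lowers the release of follicle-stimulating hormone (FSH) by the pituitary. A pair of beta chains makes an activin, which raises that release and acts on cells nearby, and follistatin binds activin and keeps it from its receptors. Anti-Mullerian hormone comes from granulosa cells of small growing follicles and restrains the recruitment of further follicles. FOXL2 maintains the identity of granulosa cells, NR5A1 (steroidogenic factor 1) switches on steroid synthesis in several ovarian cell types, and NR5A2 (liver receptor homologue 1) is needed for ovulation and for the corpus luteum, the gland that granulosa and theca cells form after ovulation.

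Levels are in CPM, which state a gene's counts relative to the library's total, on totals scaled by TMM, which corrects for differences in composition between libraries. Libraries held 33185496 to 49720354 counts. A gene is said to have risen or fallen where edgeR's quasi-likelihood test gave a Benjamini-Hochberg adjusted p under 0.05 over all genes tested in that tissue. Ifng was above WT in every mutant library of both tissues. In the ovary the WT libraries had 0 to 4 counts, the ARE+/- libraries 10 to 28 and the ARE-/- libraries 38 to 51. In the uterus they had 0 to 6, 36 to 70 and 56 to 130 counts, so the mutants overlapped there. The sources used here do not give the estrous stage of the mice, and with groups of 3 a difference in stage cannot be told apart from one in genotype. In RNA from a whole organ, fewer cells of a type and less RNA per cell cannot be told apart either.

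The files place Inha on chromosome 1 (75483721 to 75487010, plus strand), Inhbb on chromosome 1 (119343195 to 119349978, minus strand) and Nr5a2 on chromosome 1 (136770309 to 136888186, minus strand). Inhba lies on chromosome 13 (16186436 to 16206206, plus strand), as does Fst (114588826 to 114595487, minus strand). Amh is on chromosome 10 (80641077 to 80643482, plus strand), Foxl2 on chromosome 9 (98837341 to 98840596, plus strand) and Nr5a1 on chromosome 2 (38582668 to 38604554, minus strand). All of these positions are those of the GENCODE M32 annotation in the files. Fst shares 115 of its 2833 exon bases with Gm47040 on the other strand, and Foxl2 shares 12 of 3256 with Foxl2os. The counting used no strand, so reads in those bases cannot be assigned to 1 gene of the pair.

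Promoter entries from RefSeq were matched to 5 of the 8 genes: Inha, Inhba, Inhbb, Foxl2 and Nr5a2. There was no entry for Amh, Fst and Nr5a1. The build is GRCm38.p6, which has other coordinates than the annotation above. The Inha entry begins in protein-coding sequence, so it does not show the Inha promoter. The entries of 3 genes on which the results turn are shown. They are Nr5a2, the member with the smallest unadjusted p in the ovary, and the 2 beta chain genes. In WT animals Inhba was lower in the uterus than in the ovary, and Inhbb did not differ beyond its spread. Each run is the 250 bases before the transcript start, 5′ to 3′ on the gene's own strand, and capitals mark matches to the GATA site AGATAA or TGATAA on either strand. They lie at chr1:136960449-136960698 (Nr5a2, minus strand), chr13:16011601-16011850 (Inhba, plus strand) and chr1:119422249-119422498 (Inhbb, minus strand).
Nr5a2: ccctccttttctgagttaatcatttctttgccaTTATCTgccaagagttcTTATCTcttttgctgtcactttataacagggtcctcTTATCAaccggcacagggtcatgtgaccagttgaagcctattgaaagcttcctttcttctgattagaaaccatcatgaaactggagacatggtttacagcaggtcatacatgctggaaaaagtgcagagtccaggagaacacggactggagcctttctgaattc
Inhba: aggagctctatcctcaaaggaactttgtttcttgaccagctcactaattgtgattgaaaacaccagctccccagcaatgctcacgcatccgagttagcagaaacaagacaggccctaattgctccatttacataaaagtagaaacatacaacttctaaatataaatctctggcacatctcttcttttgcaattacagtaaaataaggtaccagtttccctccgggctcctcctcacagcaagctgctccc
Inhbb: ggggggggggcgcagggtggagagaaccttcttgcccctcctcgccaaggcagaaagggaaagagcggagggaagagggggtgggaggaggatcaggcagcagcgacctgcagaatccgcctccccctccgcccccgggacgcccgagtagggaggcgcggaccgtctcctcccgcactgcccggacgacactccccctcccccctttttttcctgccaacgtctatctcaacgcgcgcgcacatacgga

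Over windows of 300 bases (250 before the start and 50 after it), the Nr5a2 entry shown held 3 GATA matches and a second Nr5a2 entry held 1. At least 1 such match is found in 18.6% of 32851 RefSeq promoters of that length, and 3 or more in 0.502%. The windows of the other 4 genes held none. None of the 6 windows held the NR5A site AAGGTCA (in 4.72% of all promoters), the forkhead site GTAAACA (3.65%), the core TGACG of the cAMP response site (20.8%) or the interferon gamma activated (GAS) site (8.3%), on either strand. The beta chain genes differed in base composition: G and C made up 47.7% of the Inhba window and 64.3% of the Inhbb window, against a median of 52.7% over all promoters. These matches describe the printed letters and nothing about binding. The lack of matches in the Inha window describes a stretch that begins in coding sequence, and not the Inha promoter.

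Among the members in the WT ovary, Inha had by far the most transcript per length, with 930 ± 209 CPM per kilobase of exon (SD, n = 3). The order below it was Inhbb (103 ± 13.9), Amh (86.3 ± 11.7), Nr5a1 (83.4 ± 16.0), Inhba (77.7 ± 37.4), Nr5a2 (69.9 ± 25.9), Foxl2 (61.8 ± 4.80) and Fst (40.0 ± 5.33 CPM per kilobase). Inha lay above Inhbb in every WT library, and Foxl2 lay above Fst. The 6 genes from Inhbb to Foxl2 overlapped, each with its neighbour in the order. In ARE-/- ovaries Inha was again first, at 652 ± 251 CPM per kilobase and apart from the next gene, and Inhba was last, at 30.6 ± 23.1 and overlapping its neighbour Fst (32.5 ± 14.4).

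In the ovary none of the 8 members passed the test in ARE-/- against WT, where 10.5% of the 24457 genes tested did. The same held for ARE+/- against WT, with 1.71% of all genes called, and for ARE-/- against ARE+/-, with 0.0491% called. DESeq2 also called no member in any of the 3. An unadjusted p under 0.05 was reached by 1 of 8 members in ARE-/- against WT (26.6% of all genes), by 0 of 8 in ARE+/- against WT (15.7%) and by 0 of 8 between the mutants (8.39%). Members had a median log2 fold change of -0.34 in ARE-/- against WT, where all genes had 0.02, and of -0.19 and 0.02 in ARE+/- against WT. Both comparisons use the same 3 WT libraries. The authors' deposited table of a likelihood-ratio test over the 3 genotypes gives the members adjusted p-values from 0.293 (Nr5a2) to 0.936 (Nr5a1), while 12.1% of the 24347 genes with a value there are under 0.05.

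**Figure D1:**
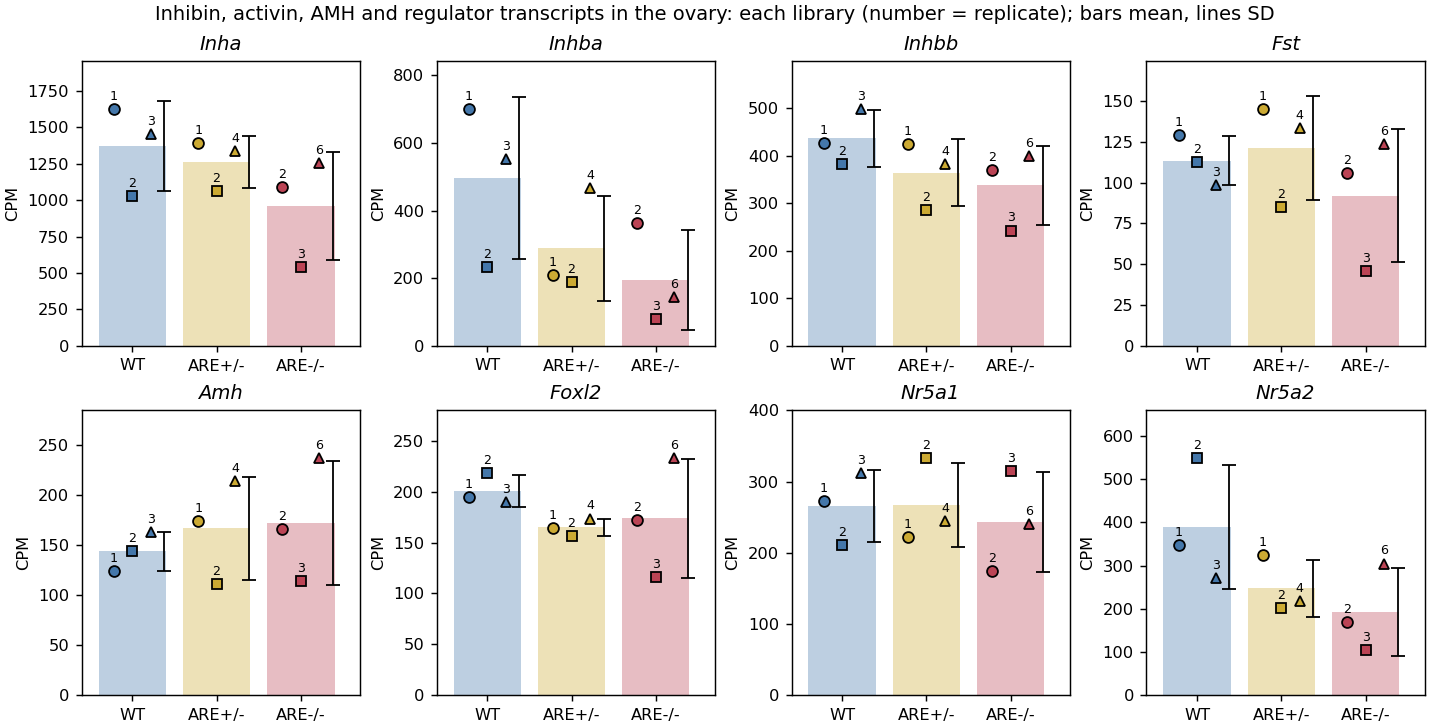
Level of each of the 8 genes in the 9 ovary libraries, in CPM on a linear axis from 0, by genotype. Points are libraries with their replicate number, bars are group means and lines are ± SD (n = 3). ARE-/- replicate 3 is the lowest of the 9 libraries in 6 of the 8 panels.

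Inha, the alpha chain that makes a dimer an inhibin, measured 1629, 1030 and 1454 CPM in the 3 WT ovaries (replicates 1, 2 and 3). The ARE+/- ovaries (replicates 1, 2 and 4) had 1392, 1060 and 1337 CPM, and the ARE-/- ovaries (replicates 2, 3 and 6) had 1090, 545 and 1252 CPM, an order of replicates kept for all genes below. All ARE-/- libraries lay below the WT mean of 1371 CPM, but 2 of them lay above WT replicate 2, so the groups overlapped. ARE-/- against WT gave a log2 fold change of -0.51 ± 0.30 (SE; edgeR, adjusted p = 0.322; 95% interval -1.19 to 0.17), and that of ARE+/- was -0.12 ± 0.30 (adjusted p = 0.898).

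Inhba, the beta A chain of inhibin A and activin A, varied most of the 8, with an 8.70-fold range over the 9 ovaries. WT ovaries had 702, 234 and 552 CPM, ARE+/- ovaries 211, 189 and 468 CPM, and ARE-/- ovaries 362, 80.7 and 144 CPM. One library in each group thus went against the other 2, with WT replicate 2 low and ARE+/- replicate 4 and ARE-/- replicate 2 high. ARE-/- against WT gave -1.34 ± 0.68 (edgeR adjusted p = 0.26; 95% interval -2.94 to 0.25) and ARE+/- against WT -0.78 ± 0.67 (adjusted p = 0.652). The interval reaches from a 0.25 log2 rise to a fall of nearly 3 log2 units, so the spread between mice sets what could be seen.

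Inhbb, the beta B chain, was steadier. It had 428, 382 and 500 CPM in the WT libraries, 425, 286 and 382 CPM in the ARE+/- libraries and 371, 243 and 399 CPM in the ARE-/- libraries. ARE-/- replicate 6 lay between the WT values, so the groups overlapped, and the log2 fold change was -0.37 ± 0.20 (edgeR adjusted p = 0.286; 95% interval -0.83 to 0.09). Against WT the ARE+/- ovaries gave -0.26 ± 0.20 (adjusted p = 0.605).

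Fst, which binds activin, had 129, 113 and 98.7 CPM in WT ovaries and 145, 85.1 and 133 CPM in ARE+/- ovaries. The ARE-/- ovaries had 106, 45.9 and 124 CPM. Only ARE-/- replicate 3 lay below the range of the other 8 libraries. Against WT the values were -0.30 ± 0.36 (log2) for ARE-/- (edgeR adjusted p = 0.647; 95% interval -1.12 to 0.52) and 0.10 ± 0.35 for ARE+/- (adjusted p = 0.933), and without ARE-/- replicate 3 the former was 0.002.

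Amh was the 1 member whose ARE-/- mean lay above the WT mean. WT ovaries had 124, 145 and 163 CPM, ARE+/- ovaries 175, 112 and 215 CPM, and ARE-/- ovaries 167, 114 and 238 CPM. The highest and the lowest values of the 9 were both from mutant libraries. Against WT the log2 fold change was 0.26 ± 0.30 for ARE-/- (edgeR adjusted p = 0.637; 95% interval -0.43 to 0.95) and 0.21 ± 0.30 for ARE+/- (adjusted p = 0.801), and the first turned to -0.06 without ARE-/- replicate 6.

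Foxl2, the granulosa identity factor, had 195, 219 and 190 CPM in WT ovaries. The ARE+/- ovaries had 165, 157 and 174 CPM, all below all WT libraries, as 11.3% of all genes were in that comparison. The ARE-/- ovaries had 172, 116 and 234 CPM, a spread that took in the whole range of the other libraries. Relative to WT it had log2 fold changes of -0.29 ± 0.21 for ARE+/- (edgeR adjusted p = 0.567) and -0.21 ± 0.21 for ARE-/- (adjusted p = 0.572; 95% interval -0.67 to 0.26).

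Nr5a1 showed the smallest difference of the 8 between ARE-/- and WT. Its levels were 273, 211 and 312 CPM in WT, 222, 334 and 244 CPM in ARE+/- and 175, 315 and 241 CPM in ARE-/- ovaries. Its log2 fold change was -0.12 ± 0.24 for ARE-/- (edgeR adjusted p = 0.794; 95% interval -0.66 to 0.42) and 0.01 ± 0.24 for ARE+/- (adjusted p = 0.994). ARE-/- replicate 3, the lowest library for 6 other members, was the highest ARE-/- library for Nr5a1.

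Nr5a2, the factor needed for ovulation and luteinization, had 348, 550 and 271 CPM in WT ovaries. The ARE+/- ovaries had 324, 201 and 218 CPM, and the ARE-/- ovaries 169, 103 and 305 CPM. Replicates 2 and 3 of ARE-/- lay below every WT library, and replicate 6 lay above WT replicate 3. The log2 fold change of -1.02 ± 0.43 for ARE-/- had an unadjusted p of 0.0476 and an adjusted p of 0.183 (edgeR; 95% interval -2.02 to -0.01), and that of ARE+/- was -0.66 ± 0.43 (adjusted p = 0.527). Nr5a2 passed the test in ARE-/- against WT under 1 of 14 alternative fits. That fit left out ARE-/- replicate 6, the ARE-/- library with most Nr5a2, and gave 1.5 times the main difference (-1.53, edgeR adjusted p = 0.0485). Over all fits with 1 library left out the log2 fold change was -1.53 to -0.70.

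**Figure D2:**
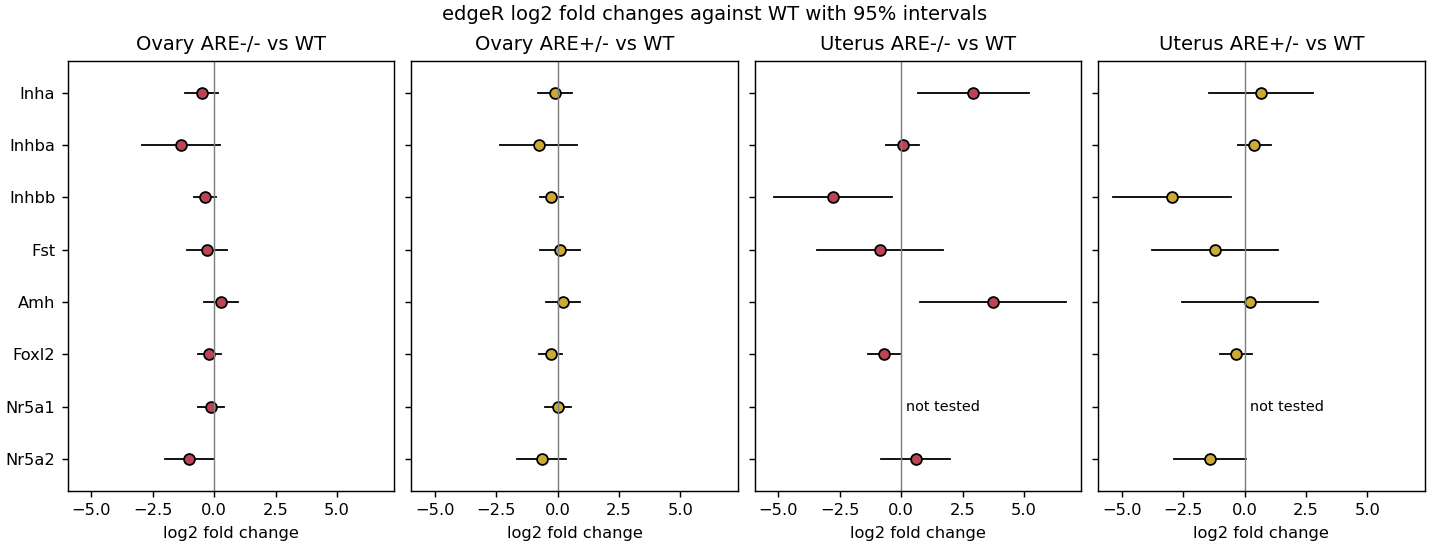
Log2 fold change of the 8 genes against WT (points) with 95% intervals (lines), for ARE-/- and ARE+/- in the ovary and in the uterus. In the ovary 1 of the 16 intervals lies wholly on 1 side of 0, that of Nr5a2 in ARE-/-. In the uterus those of Inha, Inhbb, Amh and Foxl2 in ARE-/- and of Inhbb in ARE+/- do. None of these genes passed the test after adjustment. Nr5a1 was not tested in the uterus because of its low counts.

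Markers of ovarian cell types also varied between these libraries. The summed level of 11 other granulosa cell markers was 1130 to 1342 CPM in WT, 914 to 1222 CPM in ARE+/- and 761 to 1261 CPM in ARE-/- ovaries, and 0 of 11 passed the test in ARE-/- against WT (median log2 fold change -0.41). The 761 CPM belonged to ARE-/- replicate 3. The 10 luteal cell markers summed to 11031 to 16815 CPM in WT, 4889 to 14878 CPM in ARE+/- and 3981 to 11906 CPM in ARE-/- ovaries, and 0 of 10 passed (median -1.40). Among the WT and among the ARE-/- ovaries the luteal sum had the same order as Nr5a2, with ARE-/- replicate 3 lowest (3981 CPM), replicate 2 next (4369 CPM) and replicate 6 highest (11906 CPM). Among the ARE+/- ovaries it did not: replicate 2 had the highest luteal sum (14878 CPM) and the lowest Nr5a2 level (201 CPM). Oocyte markers summed to 105 to 122 CPM in WT and 72.3 to 189 CPM in ARE-/- ovaries. No marker of these 3 lists was at 0 in any ovary. The part of these cell types in the members' values was not tested.

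Genes that passed the test in the same ovaries included those of immune cells. All 16 interferon gamma response genes, all 10 T cell markers and 8 of 10 macrophage markers rose in ARE-/- against WT. Their summed levels were apart from WT in every ARE-/- library: T cell markers 9.92 to 12.1 CPM in WT and 48.9 to 115 CPM in ARE-/-, macrophage markers 449 to 592 and 979 to 2053 CPM. ARE-/- replicate 3, lowest for 6 members, had the highest T cell sum (115 CPM), and a macrophage sum of 1733 CPM between those of the other 2. Its Ifng count of 38 was the lowest of the ARE-/- ovaries. Non-immune lists were high in it too. Adipocyte markers summed to 2265 CPM, against 1525 and 525 CPM in replicates 2 and 6, and surface epithelium and oviduct markers to 4132 CPM, against 3618 and 3490 CPM. Smooth muscle markers (4394 CPM) lay between those of the other 2. The part of any of these in the members' values was not tested.

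Ratios between members within a library need no scaling of libraries. Amh over Inha, per kilobase, was 0.067, 0.124 and 0.099 in WT, 0.111, 0.093 and 0.142 in ARE+/-, and 0.135, 0.185 and 0.168 in ARE-/- ovaries. All ARE-/- ovaries lay above all WT ovaries, with a difference of mean log2 ratios of 0.78, while ARE+/- overlapped both. Leaving out 1 library gave 0.54 to 0.98. With 3 libraries against 3 no exact test of a single ratio can give a two-sided p under 0.1, and none was made. Several ratios were looked at in each genotype comparison. The share of all gene pairs whose ratios lie apart in this way was not computed, for this ratio or for those below.

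The beta chains together over the alpha chain, (Inhba + Inhbb) over Inha, had ratios of 0.191, 0.181 and 0.207 in WT ovaries. In ARE+/- ovaries they were 0.141, 0.135 and 0.18, all below WT, the last of them narrowly (difference of mean log2 ratios -0.35). ARE-/- ovaries had 0.195, 0.189 and 0.137 and overlapped WT. Inhbb over Inhba had medians of 1.36 in WT, 2.28 in ARE+/- and 4.18 in ARE-/- ovaries, with ranges that overlapped (0.915 to 2.45, 1.23 to 3.03 and 1.54 to 4.52). Fst over both beta chains (0.171 to 0.314 in WT, 0.233 to 0.376 in ARE-/-) and Nr5a1 over Nr5a2 (0.673 to 2.02 in WT, 1.38 to 5.34 in ARE-/-) overlapped as well.

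**Figure D3:**
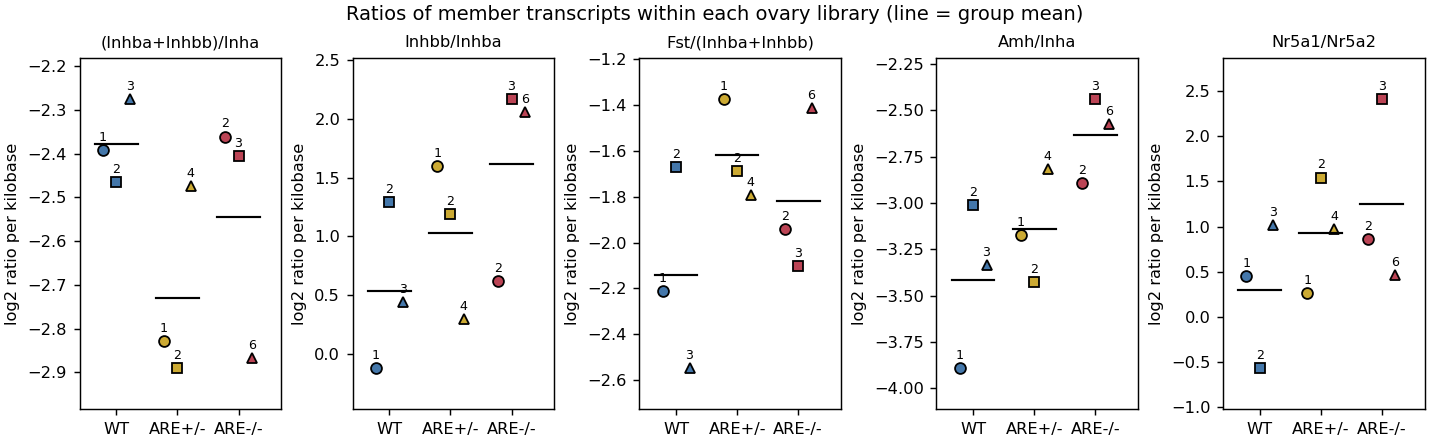
Log2 ratio of member transcripts per kilobase within each of the 9 ovary libraries, by genotype, with replicate numbers and a line at each group mean. Amh over Inha in the 3 ARE-/- libraries (0.135 to 0.185 before taking logs) lies above the 3 WT libraries (0.067 to 0.124), and the beta chains over Inha in the 3 ARE+/- libraries lie below WT. In all other comparisons shown the groups overlap, and no ratio was tested.

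Some receptors of this ligand family fell in ARE-/- ovaries. Of 11 receptor genes for activin, inhibin, AMH and related ligands, 3 fell, none rose, and the median log2 fold change was -0.35. Over all genes tested in that comparison 4.15% fell and 6.31% rose. The same shares apply to the counts of the other ovary lists below. Bmpr2, a type 2 receptor for bone morphogenetic proteins, fell from 336, 321 and 242 CPM in WT to 169, 142 and 183 CPM in ARE-/- (-0.86 ± 0.17, edgeR adjusted p = 0.0138). Acvr1, a type 1 receptor, fell from 49.5, 57.0 and 49.5 CPM to 33.9, 28.4 and 32.8 CPM (-0.71 ± 0.15, adjusted p = 0.0163), and Bmpr1a, a type 1 receptor that AMH also uses, fell by 0.35 on the log2 scale (adjusted p = 0.0215). In ARE+/- against WT 0 of 11 passed, and Bmpr2 had -0.50 (adjusted p = 0.189).

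Over 14 alternatives the log2 fold changes kept their size: -1.01 to -0.79 for Bmpr2, -0.83 to -0.66 for Acvr1 and -0.39 to -0.34 for Bmpr1a, called in 13, 12 and 11 of the 14. Bmpr2 lost its call without WT replicate 1, Acvr1 without WT replicate 1 or 2, and Bmpr1a without WT replicate 1 or 2 or with the replicate number as a block. Without WT replicate 1 the calls over all genes also went down, from 2558 to 785. The type 2 receptors of activin were close to the threshold and did not pass: Acvr2a had -0.29 ± 0.09 (edgeR adjusted p = 0.0723) and Acvr2b had -1.08 ± 0.32 (adjusted p = 0.0622). Tgfbr3, betaglycan, the co-receptor through which inhibin opposes activin, had -0.10 ± 0.17 (adjusted p = 0.771), and Amhr2, the type 2 receptor of AMH, had -0.07 ± 0.10 (adjusted p = 0.73).

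Of 8 SMADs, most of which carry the receptors' signal to the nucleus, 2 fell and none rose in ARE-/- ovaries. Smad9, of the branch for bone morphogenetic proteins, had 12, 20.7 and 10.5 CPM in WT, 9.57, 11 and 7.70 CPM in ARE+/- and 3.96, 2.82 and 5.38 CPM in ARE-/- ovaries. Its fall of -1.83 ± 0.31 (edgeR adjusted p = 0.00695) was called under all 14 alternatives tried. Smad2, of the activin branch, fell by 0.41 on the log2 scale (adjusted p = 0.035), and was called under 6 of 14, and lost without WT replicate 1, 2 or 3 among others.

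Of 7 tested binding proteins of this family, Fstl3, a relative of follistatin, rose by 0.71 ± 0.18 (edgeR adjusted p = 0.032), from 8.05, 8.02 and 10.2 CPM in WT to 17.1, 14.5 and 11.5 CPM in ARE-/-, and was called under 5 of 14 alternatives. None of 9 tested other ligands passed, the oocyte factors Gdf9 (0.17 ± 0.38, adjusted p = 0.82) and Bmp15 (-0.27 ± 0.33, adjusted p = 0.662) included.

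Among 17 tested regulators and partners of the granulosa factors, 1 rose and 2 fell in ARE-/- against WT. Rspo1, a secreted enhancer of WNT signalling, had 13.8, 17.0 and 19.1 CPM in WT, 26.2, 23.5 and 24.9 CPM in ARE+/- and 41.4, 39.7 and 29.5 CPM in ARE-/- ovaries. It rose by 1.15 ± 0.16 (edgeR adjusted p = 0.00288) and was called under all 14 alternatives. Ovarian surface epithelium also expresses Rspo1, and 6 of 10 surface epithelium and oviduct markers rose and 1 fell (Lgals7, by 0.84 on the log2 scale, named after its value was seen; edgeR adjusted p = 0.01) in the same ovaries, with summed levels of 1699 to 2335 CPM in WT and 3490 to 4132 CPM in ARE-/-. Their part in the rise of Rspo1 was not tested.

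Gata4, a factor that acts on the promoters of inhibin and steroidogenic genes, fell from 249, 218 and 241 CPM in WT to 161, 194 and 180 CPM in ARE-/- ovaries (-0.41 ± 0.11, edgeR adjusted p = 0.0377). Its call was lost under 5 of 14 alternatives, among them without WT replicate 1, WT replicate 3 or ARE-/- replicate 2. Cited2, a transcriptional co-activator, fell by 0.52 on the log2 scale (adjusted p = 0.0378), a call that was lost under 7 of 14 alternatives. Gata6 had -0.41 ± 0.17 (adjusted p = 0.16) and Wt1 0.17 ± 0.09 (adjusted p = 0.262), and neither passed.

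The genes whose levels over the 9 ovary libraries were most like each member's were found among 14451 named genes with at least 5 CPM. Likeness is the mean absolute difference of log2 profiles after centring, as a description with shared libraries and no test. Inha was closest to Hsd17b1, the granulosa enzyme that reduces estrone to estradiol (0.09), then to Rgs4 (0.10). Inhba was closest to Grem1, an antagonist of bone morphogenetic proteins (0.34), then to Prrt4 (0.35). Amh was closest to E2f1, a factor of the cell cycle (0.08), then to Pramef12 (0.10).

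Inhbb was nearest to Yrdc (0.07) and Gm11491 (0.07). For Fst the nearest were Fam78a (0.11) and Gm47040 (0.11), the latter being the overlapping gene named above. Nr5a1 had Gramd1b (0.05) and Slc45a3 (0.08), and Nr5a2 had Zfp711 (0.17) and Ccdc68 (0.19). Foxl2 varied too little (SD 0.295 on the log2 scale, under the minimum of 0.3) to be matched.

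Cyp19a1, the aromatase gene that FSH induces in large follicles, shared its highest library of each genotype with Inhba. It had 83.9, 24.0 and 47.8 CPM in WT, 3.92, 11.2 and 53.4 CPM in ARE+/-, and 57.8, 4.57 and 8.06 CPM in ARE-/- ovaries. Both genes were highest in WT replicate 1, ARE+/- replicate 4 and ARE-/- replicate 2. Its log2 fold change of ARE-/- against WT was -1.14 ± 1.24 (edgeR adjusted p = 0.62). Fshr, the FSH receptor, had 23.6, 10.4 and 22.9 CPM in WT and 14, 2.59 and 12.2 CPM in ARE-/- ovaries (-0.98 ± 0.58, adjusted p = 0.33), and its lowest library in each of these groups was also the lowest for Inha.

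In WT animals 6 of the 8 members were higher in the ovary than in the uterus, where 13.3% of 26682 genes tested over all 18 libraries were higher in the ovary and 25.2% differed in either direction. Log2 fold changes of ovary against uterus were 10.69 for Nr5a1, 7.49 for Inha, 6.81 for Inhba, 6.70 for Amh, 6.12 for Nr5a2 and 1.18 for Foxl2, with edgeR adjusted p-values from 3.65e-06 to 0.00524. Foxl2 was therefore present in both organs. Inhbb did not differ beyond its spread (-0.09 ± 0.80, adjusted p = 0.955). Fst, at 2.06 (adjusted p = 0.132), was called at 5.10 (adjusted p = 2e-04) without uterus WT replicate 2. The sources used here name no sequencing batch for either tissue.

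In the uterus 7 members could be tested, and none passed in any genotype comparison by edgeR or by DESeq2. For ARE-/- against WT 3.75% of 24277 genes were called, for ARE+/- against WT 1.14%, and for ARE-/- against ARE+/- 0% (186 genes by DESeq2). An unadjusted p under 0.05 was reached by 4 of 7 members in ARE-/- against WT (19.9% of all genes), by 1 of 7 in ARE+/- against WT (14.1%) and by 3 of 7 between the mutants (4.87%). Those of Inha, Amh and Nr5a2 came mostly from high values in 1 library. That library, uterus ARE-/- replicate 1, held ovarian transcripts. Uterus WT replicate 2 stood apart from the other 2 WT libraries for Inhbb, Fst and Foxl2. Without WT replicate 2 the differences of Inhbb from WT were larger, as given below.

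**Figure D4:**
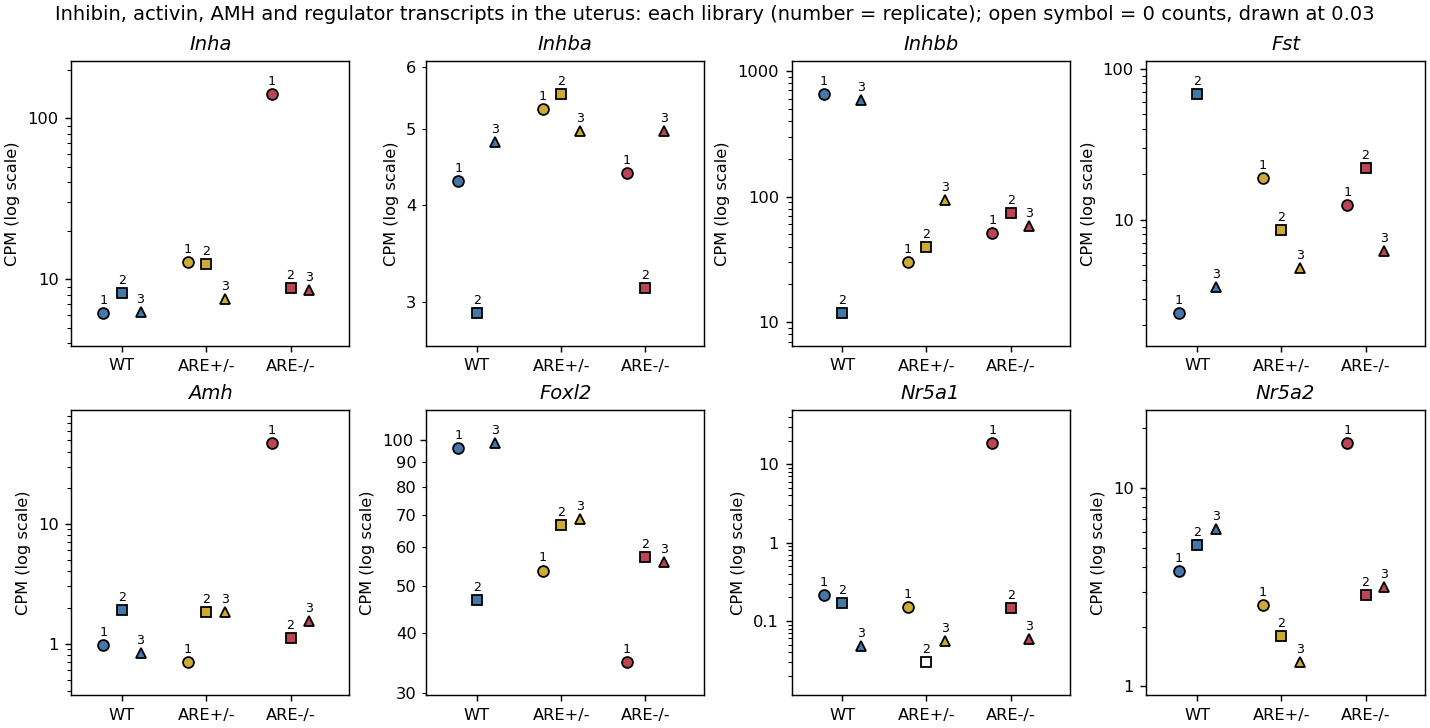
Level of each of the 8 genes in the 9 uterus libraries, in CPM on a log axis, by genotype, with replicate numbers and an open symbol for 0 counts. ARE-/- replicate 1 is the highest library for Inha (141 CPM), Amh (47.3), Nr5a1 (18.7) and Nr5a2 (16.8), and WT replicate 2 is the lowest for Inhbb (11.8) and the highest for Fst (68.2).

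Inhbb was the member with most transcript per length in the WT uterus (98.7 ± 83.4 CPM per kilobase). Its levels were 657, 11.8 and 591 CPM in WT replicates 1, 2 and 3, 30.1, 39.9 and 93.3 CPM in the ARE+/- replicates, and 51.5, 73.9 and 57.8 CPM in the ARE-/- replicates. WT replicate 2 was the lowest of the 9, and the other 2 WT libraries were over 6 times as high as any mutant library. The log2 fold change was -2.78 ± 1.06 for ARE-/- (edgeR adjusted p = 0.189; 95% interval -5.18 to -0.39) and -2.95 ± 1.07 for ARE+/- (adjusted p = 0.256). Without WT replicate 2, chosen here after its values were seen, both passed: -3.36 (adjusted p = 0.00702) and -3.52 (adjusted p = 0.0144). The authors' deposited table gives Inhbb an adjusted p of 0.0876 in the uterus, where 7.55% of genes are under 0.05.

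Fst was high in the WT uterus where Inhbb was low, with 2.41, 68.2 and 3.57 CPM in replicates 1, 2 and 3. ARE+/- replicates had 19.0, 8.59 and 4.80 CPM and ARE-/- replicates 12.4, 22 and 6.20 CPM. Every mutant library lay between WT replicate 3 and WT replicate 2. The direction therefore hung on 1 library: ARE-/- against WT was -0.87 ± 1.13 (edgeR adjusted p = 0.724) with WT replicate 2 and 2.17 (adjusted p = 0.113) without it, and ARE+/- against WT was -1.19 ± 1.14 (adjusted p = 0.709) with it and 1.85 (adjusted p = 0.2) without it. The ratio of Fst to the 2 beta chains spanned 0.005 to 7.45 in the 3 WT uteri and 0.075 to 0.849 in the 6 mutant uteri.

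Foxl2, which the uterine stroma also expresses, had 96.0, 46.7 and 98.5 CPM in WT uteri, 53.8, 66.7 and 68.7 CPM in ARE+/- uteri and 34.8, 57.3 and 56.1 CPM in ARE-/- uteri. Here WT replicate 2 lay among the mutants while the other 2 WT libraries lay above them all. The log2 fold change was -0.70 ± 0.30 for ARE-/- (edgeR adjusted p = 0.228; 95% interval -1.37 to -0.04) and -0.35 ± 0.30 for ARE+/- (adjusted p = 0.664). Leaving out 1 library gave -0.98 to -0.51 for ARE-/- and -0.63 to -0.18 for ARE+/-, with no call. Inhba was low and even, at 2.90 to 5.55 CPM over the 9 uteri. Its 3 ARE+/- libraries (4.97 to 5.55 CPM) lay above the 3 WT libraries (2.90 to 4.81 CPM), as 15.7% of genes did, with a log2 fold change of 0.40 ± 0.30 (adjusted p = 0.612).

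Inha in the uterus was at most 12.9 CPM in all but 1 library. WT replicates had 6.17, 8.26 and 6.24 CPM, ARE+/- replicates 12.9, 12.4 and 7.56 CPM, and ARE-/- replicates 141, 8.81 and 8.62 CPM. All ARE-/- libraries lay above all WT libraries, as 12.5% of genes did. The log2 fold change of 2.94 ± 0.99 (edgeR adjusted p = 0.147) became 0.34 (adjusted p = 0.526) without ARE-/- replicate 1. Amh had 0.834 to 1.92 CPM in WT, 0.700 to 1.85 CPM in ARE+/- and 47.3, 1.11 and 1.56 CPM in ARE-/- uteri, and its log2 fold change of 3.74 ± 1.32 (adjusted p = 0.162) became 0.10 (adjusted p = 0.94) without that library.

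Nr5a1 was all but absent from the uterus, with 0 to 8 counts in 8 libraries and 672 counts in ARE-/- replicate 1, and it did not pass the filter on low counts. The library with 0 counts, ARE+/- replicate 2, has a floor of 0.077 CPM if each count is taken as independent. Mates were counted singly, so the level that counting error allows may be higher. Nr5a2 had 3.81, 5.16 and 6.22 CPM in WT, 2.57, 1.79 and 1.32 CPM in ARE+/- and 16.8, 2.88 and 3.17 CPM in ARE-/- uteri. Its ARE+/- libraries lay below all WT libraries, as 12.9% of genes did (-1.41 ± 0.65, edgeR adjusted p = 0.368), and below all ARE-/- libraries, as 4.77% did (ARE-/- against ARE+/- 2.00 ± 0.66, adjusted p = 0.793). Against WT, ARE-/- gave 0.59 ± 0.63 (adjusted p = 0.658) with replicate 1 and -0.75 (adjusted p = 0.28) without it.

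The excess of uterus ARE-/- replicate 1 over the mean of replicates 2 and 3 can be set against the mean of the ARE-/- ovaries. It was 26.6% of the ovarian level for Amh, 13.8% for Inha, 7.62% for Nr5a1 and 7.18% for Nr5a2, and 0.174% for Inhba. Zp3 and Oosp1, genes of the oocyte, had 21.3% and 19.8%, and Fshr 12.2%. Cyp19a1, listed here as a granulosa marker, had 2.13%, from 18 counts. Its ARE-/- ovary mean came mostly from replicate 2 (57.8 CPM, against 4.57 and 8.06 CPM). Other transcripts of steroid-producing cells had 2.06% (Cyp17a1), 1.48% (Lhcgr) and 1.44% (Cyp11a1), and Star had no excess (-0.55%). Foxl2 and Inhbb were lower in replicate 1 than in either of the other 2 ARE-/- uteri, and Fst (12.4 CPM) lay between them (22 and 6.20 CPM). The share was thus not 1 value for all ovarian transcripts.

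**Figure D5:**
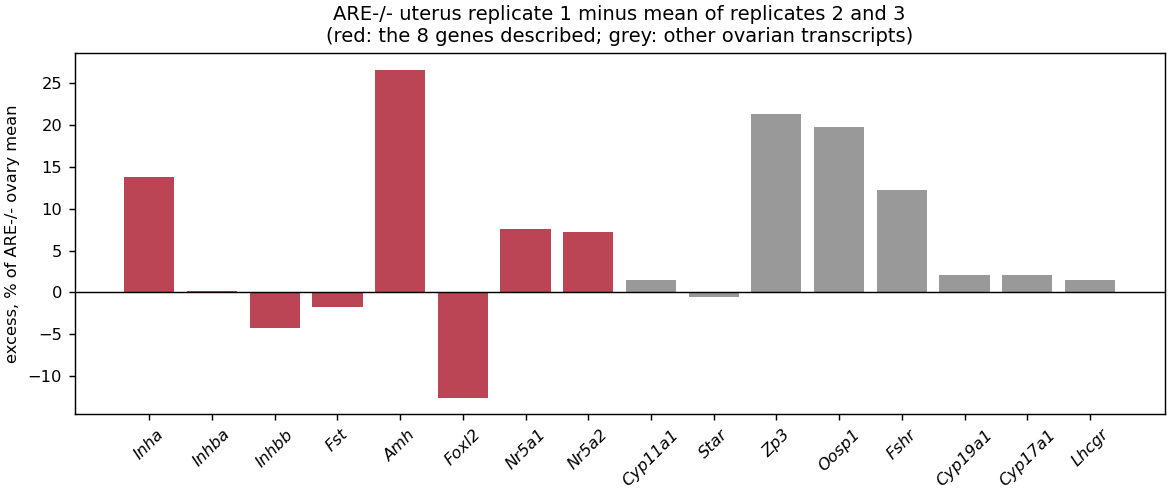
Excess of uterus ARE-/- replicate 1 over the mean of replicates 2 and 3, as a percentage of the mean level in the 3 ARE-/- ovaries, for the 8 genes and 8 other ovarian transcripts. Amh (26.6%) and the oocyte gene Zp3 (21.3%) stand highest, and Cyp11a1 of steroid-producing cells is at 1.44%.

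Other lists moved in that library too. Adipocyte markers summed to 17387 CPM in ARE-/- replicate 1, against 1830 and 1066 CPM in replicates 2 and 3 and 64.8 to 84.8 CPM in WT uteri. Surface epithelium and oviduct markers summed to 1974 CPM against 459 and 759 CPM, and oocyte markers to 16.8 CPM against 1.67 and 3.02 CPM, with 1 of 11 at 0 against 6 and 7 of 11. Smooth muscle markers summed to 19277 CPM against 4278 and 4367 CPM (7997 to 8817 CPM in WT uteri), and red cell markers to 7273 CPM against 1300 and 839 CPM. Uterus markers were at 434 CPM against 1217 and 717 CPM. How much of the ARE-/- values for Inha, Amh, Nr5a1 and Nr5a2 came from ovarian tissue in the sample was not tested; replicates 2 and 3 gave those 4 genes levels of at most 8.81 CPM.

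Of the pathway genes in the uterus, 2 of 11 receptors passed in ARE-/- against WT. Tgfbr3, betaglycan, fell from 199, 209 and 223 CPM in WT to 76.2, 133 and 92.9 CPM (-1.06 ± 0.22, edgeR adjusted p = 0.029), and was called under 8 of 14 alternatives, not without WT replicate 1 or WT replicate 3. Acvr1c, the type 1 receptor ALK7, was named after its values were seen. It rose from 0.483, 0.427 and 0.476 CPM to 37.9, 13.2 and 5.45 CPM (5.34 ± 0.70, adjusted p = 0.00417) and was called under all 14 alternatives. Adipocytes express Acvr1c, and the adipocyte marker sums above had the same order over the ARE-/- libraries, replicate 1 above 2 above 3; their part was not tested.

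Tgfb1, also named after its values were seen, was the 1 of 9 tested ligands that passed in ARE-/- uteri, rising from 25.9, 30.7 and 21.9 CPM to 66.9, 42.1 and 52.8 CPM (1.04 ± 0.21, edgeR adjusted p = 0.025). It was called under 8 of 14 alternatives. In the same comparison 10 of 10 T cell markers (sums 16.6 to 23.6 CPM in WT, 111 to 138 CPM in ARE-/-) and 8 of 10 macrophage markers (559 to 786 CPM in WT, 1595 to 3019 CPM in ARE-/-) rose, and their part in the value of Tgfb1 was not tested. None of 8 SMADs, 6 binding proteins or 14 granulosa regulators tested passed in ARE-/- against WT, and none of the 5 lists had a called gene in ARE+/- against WT.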

How the data were processed

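Total RNA of 18 libraries was sequenced with paired ends, per the labels' protocols. The authors counted reads per gene with featureCounts 2.0.4 on GENCODE M32, per the file headers, as whole-number counts: multi-mapping and overlapping reads were counted for each gene, mates singly, with no strand option. Per the submitters' processing notes, STAR, the build mm10 and DESeq2 were used. GENCODE M32 belongs to a later build, so positions are given only as the files state them. The authors' deposited adjusted p-values and clusters come from a likelihood-ratio test, and none of the 8 genes has a cluster.

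Symbols were matched for 52029 of 57010 identifiers. The design text states 3 mice per genotype, so libraries of a group were treated as animals. Which uterus and ovary share a mouse is not given. Backup samples by their titles, ovary ARE-/- replicate 6 and uterus WT replicate 1, were kept. Replicates differed by more than counting error (chi-square over degrees of freedom from 15.2 to 316), so none was a copy of the same library. That does not show whether they came from different mice.

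The test was the robust quasi-likelihood F-test of edgeR 4.0.16 (R 4.3.3) after filterByExpr and TMM, with Benjamini-Hochberg adjustment over all genes, per tissue over 9 libraries, and over 18 for WT ovary against WT uterus. SE is the log2 fold change over the square root of F. The script was tested on simulated data. Alternatives were RLE scaling, no filter, DESeq2 1.42.0, the replicate number as a block, only the 2 groups compared, and each library left out. The labels do not say what replicate numbers share. By correlated deviations from group means, the numbers met the rule for pairing (every pair over 0.1) only for ARE+/- and ARE-/- in the uterus (r = 0.151, 0.182 and 0.423), where the block changed no call.

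Named are the 8 genes, 14 fixed genes, called genes of the lists (up to 4 per list and ovary comparison) and the 2 nearest patterns per gene. Genes and lists were chosen with earlier results of these data known. The floor for 0 counts is 3 counts and covers counting error only. It takes each count as independent, though mates were counted singly, so the true limit may be higher.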

Additional observations from a re-analysis of the deposited data

Results flagged for a closer look

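The 8 genes were screened, in each genotype comparison, for libraries all on opposite sides of the reference mean in the 2 tissues. The share of all genes that meet this rule was not computed. Inha in ARE-/- animals lay on opposite sides of the WT mean in the 2 tissues, and passed the test in neither. In the ovary all 3 ARE-/- libraries (545 to 1252 CPM) lay below the WT mean of 1371 CPM, though 2 of them were above WT replicate 2. In the uterus all 3 (8.62 to 141 CPM) lay above the WT mean of 6.89 CPM. The 141 CPM belonged to replicate 1, the library with ovarian transcripts, and the others had 8.62 and 8.81 CPM, close to WT replicate 2 at 8.26 CPM. The difference between the tissues was not tested.

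Inhba in ARE+/- animals also lay on opposite sides and passed in neither tissue. Its levels were 189 to 468 CPM in the ovary, below the WT mean of 496 CPM but overlapping the WT libraries, and 4.97 to 5.55 CPM in the uterus, above the WT mean of 4.00 CPM. This difference was not tested either.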

How the results depend on the processing

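No member changed its side of the threshold in the ovary under another scaling, no filter, DESeq2, the replicate block or a fit of only the 2 groups compared. With 1 library left out, members called ranged from 0 to 1 in ARE-/- against WT in the ovary (Nr5a2, without ARE-/- replicate 6), from 0 to 1 in each comparison of a mutant with WT in the uterus (Inhbb, without WT replicate 2), and from 6 to 7 between the tissues (Fst, without uterus WT replicate 2). Genes called over the whole table moved more. DESeq2 gave 4139, 1500 and 199 in the ovary (ARE-/- against WT, ARE+/- against WT, ARE-/- against ARE+/-), where edgeR gave 2558, 417 and 12, and 2407, 1363 and 186 in the uterus, where edgeR gave 911, 276 and 0. Testing every gene with at least 1 count gave 38 between the ovary mutants, 415 in ARE+/- against WT and 1 between the mutants in the uterus. A fit of only the 2 groups gave 701 in ARE+/- against WT and 0 between the mutants in the ovary, and 374 and 922 in ARE-/- and ARE+/- against WT in the uterus. Leaving out 1 library gave 785 to 3262, 75 to 727 and 0 to 14 in the ovary, and 192 to 1322, 0 to 733 and 0 to 1 in the uterus.

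In the uterus 7 of 9 same-numbered pairs correlated over 0.1, against 1 of 18 pairs with different numbers. In the ovary 0 of 5 did, against 7 of 22. With the replicate block 1544, 59 and 0 genes were called in the ovary and 765, 302 and 0 in the uterus. Signs that turned with the replicate block were those of Amh (-0.010) in ARE-/- against WT, Fst (-0.27) and Amh (-0.056) in ARE+/- against WT, Inhba (0.42) and Foxl2 (-0.064) between the mutants, all in the ovary, and Inhbb (0.066) between the tissues. Nr5a1 in ARE+/- against WT in the ovary was -0.0061 with RLE scaling, -0.0061 with DESeq2 and -0.0039 in the fit of 2 groups.

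Log2 fold changes whose sign turned when 1 library was left out were all of members without a call. In ARE-/- against WT in the ovary they were Nr5a1 (-0.37 to 0.055), Fst (-0.59 to 0.0023) and Amh (-0.057 to 0.47). In ARE+/- against WT they were Nr5a1 (-0.20 to 0.12), Fst (-0.072 to 0.28) and Amh (-0.029 to 0.42). Between the ovary mutants they were Inhbb (-0.26 to 0.081), Amh (-0.25 to 0.28), Nr5a1 (-0.36 to 0.066) and Foxl2 (-0.19 to 0.30). In the uterus they were Inhba (-0.13 to 0.22), Fst (-1.41 to 2.17) and Nr5a2 (-0.75 to 0.98) in ARE-/- against WT, Fst (-1.89 to 1.85) in ARE+/- against WT, and Inha (-0.33 to 2.77), Amh (-0.12 to 4.06), Inhbb (-0.13 to 0.80) and Fst (-0.22 to 1.01) between the mutants. Between the tissues it was Inhbb (-0.66 to 0.39). Nr5a1 in the uterus had no call without the filter either (5.39 in ARE-/- against WT, edgeR adjusted p = 0.372). Called pathway genes lost their call in 35 of 126 refits in the ovary and 12 of 42 in the uterus, and none changed sign. The cause of these changes was not tested.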
